A study of Capra hircus with 10 samples.

Results

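A set of 10 genes that mark vascular and lymphatic endothelium was followed in whole ovaries of Anhui white goats, with 5 ovaries from the luteal and 5 from the follicular phase of the estrous cycle. The genes were taken by symbol from the protein-coding rows of the transcript table, which hold 20587 gene symbols, and all 10 were present. They are CDH5, PECAM1, ESAM, TIE1, ROBO4, VWF, EGFL7, SOX18, PROX1 and LYVE1. Each library was made from rRNA-depleted RNA of 1 ovary collected at a slaughterhouse. The labels do not say whether the ovaries of a phase came from different goats, so the p-values measure the spread between these ovaries.

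Endothelial cells line blood and lymphatic vessels. Vascular endothelial cells are held together by junction proteins, sense the surrounding tissue through receptors, and release proteins that act in clotting and vessel growth. Lymphatic endothelial cells share much of this programme and add PROX1, the transcription factor that sets lymphatic identity, and LYVE1, a hyaluronan receptor. In the ovary the vessels are remodelled in every cycle, because the corpus luteum that forms after ovulation is among the most densely vascularised tissues of the adult body.

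Of the 10 genes, 9 were higher in the luteal phase at an adjusted p under 0.05 in limma, and none was lower. Across all 15359 genes tested, 15.9% were higher in the luteal phase and 27.8% were lower, so 43.7% were called in either direction. The rise of the 9 genes was between 1.88-fold for VWF and 2.86-fold for ESAM. PROX1 was the exception, at 1.23-fold with an adjusted p of 0.170. The same 9 genes had an unadjusted limma p under 0.05, as had 52.2% of all genes tested. In each of the 9 genes every luteal phase ovary lay above every follicular phase ovary, which held for 11.2% of the genes tested. The median log2 fold change of the 10 genes was 1.08, against -0.14 over all genes tested. All 10 log2 fold changes were positive, as were those of 5835 of the 15359 genes tested.

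Levels are FPKM (fragments per kilobase of transcript, scaled to the mapped fragments of the library), summed over the transcripts of a gene. Fold changes are luteal over follicular on the log2(FPKM + 0.1) scale, which understates the change of low genes, and adjusted p-values are Benjamini-Hochberg values of limma over all genes tested. Values after ± are SDs over n = 5 ovaries. In whole ovaries, more endothelial cells and more RNA of a gene per cell cannot be told apart. No read counts were used here, which leaves the depth of each single library unknown, although the paper gives the total of clean reads. The total FPKM of a luteal phase ovary was 452508 to 503276, against 492324 to 540124 for a follicular phase ovary. Over all genes 2439 were higher and 4272 lower in the luteal phase, but the split was 2910 and 3055 when all ovaries were set to the same median and 2884 and 2610 on the TPM scale. None of these scalings changed a call among the 10 genes.

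**Figure D1:**
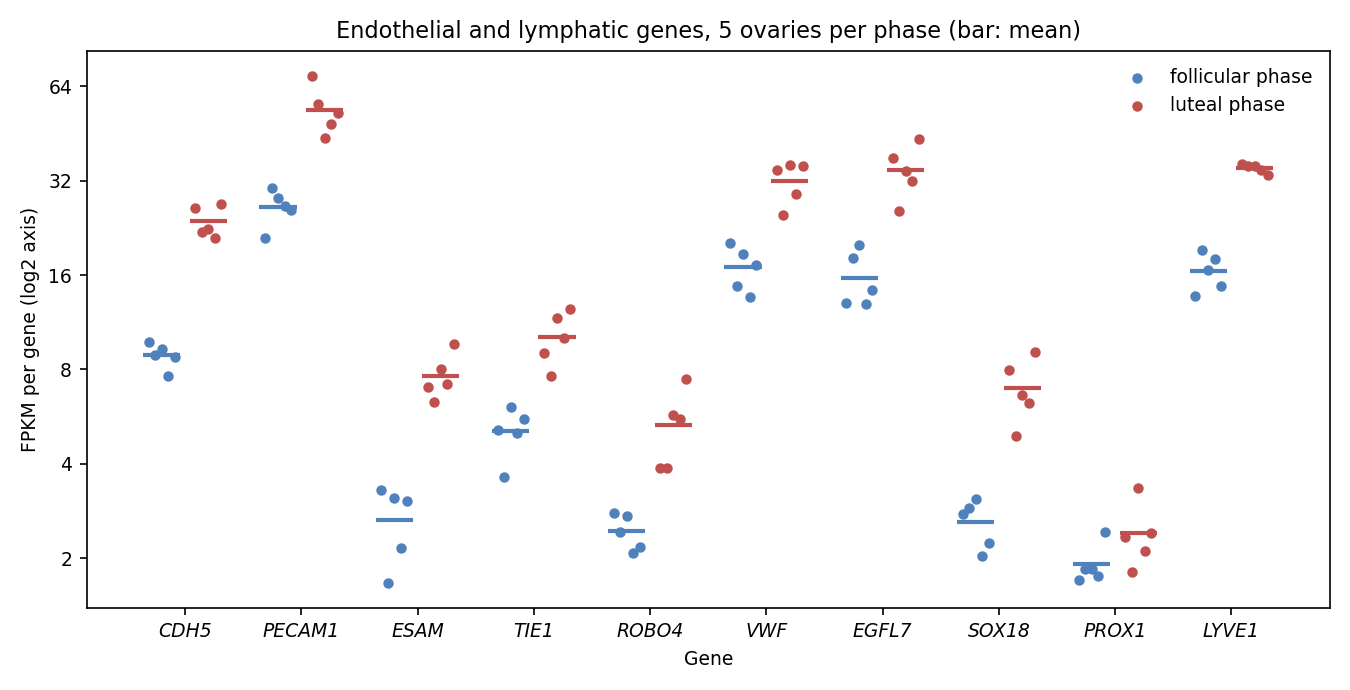
FPKM of the 10 genes in each ovary, on a log2 axis, with blue points for follicular phase and red points for luteal phase ovaries and a bar at the mean of each phase. The red and blue points of 9 genes do not overlap, whereas those of PROX1 do.

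The labelled tissue was checked against marker genes of ovarian cells, whose counts stand beside the 15.9% higher and 27.8% lower over all genes tested. All 5 luteal cell markers tested were higher in the luteal phase, with a summed FPKM of 4883 to 6710 there against 131 to 182 in the follicular phase. STAR, which carries cholesterol into the mitochondrion for steroid synthesis, was among them. The 6 granulosa cell markers summed to 92.0 to 639 in luteal phase ovaries, against 203 to 1054 in follicular phase ovaries, with 3 lower in the luteal phase. The 4 oocyte markers in the table summed to between 5.77 and 11.6 and to between 10.7 and 25.3, with 3 lower. Of the 6 stroma markers 3 were called, 2 as higher and 1 as lower, a share near the 43.7% called over all genes.

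The junction and adhesion genes all rose. CDH5 (gene 102174054) encodes VE-cadherin, the adhesion protein of endothelial adherens junctions. Its FPKM in luteal phase ovaries 1 to 5 was 26.1, 22.0, 22.5, 21.1 and 27.0. In follicular phase ovaries 1 to 5 it was 9.78, 8.92, 9.29, 7.60 and 8.78. The phases lay far apart, between 9.78 and 21.1. The follicular phase mean was 8.87 ± 0.812 and the luteal phase mean 23.7 ± 2.65. The log2 fold change was 1.41 (SE 0.09, 95% interval 1.20 to 1.61, adjusted p = 1.51e-06).

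PECAM1 (gene 102179808), the adhesion molecule CD31 of endothelial cells, platelets and leukocytes, was the most abundant of the 10 genes in both phases. It was at 68.9, 56.1, 43.9, 48.3 and 52.4 in the luteal phase ovaries and at 21.1, 30.2, 28.2, 26.6 and 25.7 in the follicular phase ovaries. Luteal phase ovary 1 was the highest and follicular phase ovary 1 the lowest, and the phases did not overlap. The mean went from 26.4 ± 3.42 to 53.9 ± 9.55, a log2 fold change of 1.02 (SE 0.13, adjusted p = 0.000122).

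ESAM (gene 102181928), an immunoglobulin-family adhesion molecule of endothelial tight junctions, had the largest fold change of the 10. Its FPKM was 7.02, 6.32, 8.05, 7.21 and 9.62 in the luteal phase ovaries. It was 3.31, 1.68, 3.11, 2.16 and 3.05 in the follicular phase ovaries, among which ovaries 2 and 4 stood lowest. The log2 fold change was 1.52 (SE 0.19, 95% interval 1.10 to 1.93, adjusted p = 0.000128). A larger log2 fold change was found in 2.98% of all genes tested.

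The receptors TIE1 and ROBO4 both rose. TIE1 (gene 102181558) is an orphan receptor tyrosine kinase that works with the angiopoietin receptor. Its FPKM was 9.06, 7.64, 11.7, 10.1 and 12.5 in the luteal phase ovaries and 5.13, 3.62, 6.05, 5.04 and 5.55 in the follicular phase ovaries. The gap between the phases was narrow here, from 6.05 to 7.64. This sum holds a transcript with a non-coding identifier, XR_001917460.1, at 2.91 in follicular phase ovary 3 and, at its highest, 4.16 in luteal phase ovary 5. The coding TIE1 transcript XM_018042812.1 alone was at 3.14 to 5.04 in the follicular phase ovaries and at 7.64 to 11.1 in the luteal phase ovaries, and without non-coding transcripts the log2 fold change was 1.25. The means were 10.2 ± 1.95 and 5.08 ± 0.908, with a log2 fold change of 0.99 (SE 0.16, adjusted p = 0.000688). ROBO4 (gene 102182670), a roundabout-family receptor that stabilises vessels, was at 3.88, 3.89, 5.73, 5.56 and 7.48 in the luteal phase and at 2.80, 2.43, 2.74, 2.08 and 2.17 in the follicular phase. Among luteal phase ovaries it had a coefficient of variation of 28.2%, the highest of the 10 genes. Its log2 fold change was 1.05 (SE 0.18, adjusted p = 0.00101).

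The secreted proteins VWF and EGFL7 also rose. VWF (gene 102191119) encodes von Willebrand factor, which endothelial cells and megakaryocytes store and which tethers platelets to damaged vessel walls. It was at 34.5, 24.9, 35.8, 28.9 and 35.6 in the luteal phase ovaries and at 20.3, 14.8, 18.7, 13.6 and 17.2 in the follicular phase ovaries. Its log2 fold change of 0.91 (SE 0.13, 95% interval 0.62 to 1.20, adjusted p = 0.000337) was the smallest of the 9. EGFL7 (gene 102172910), a secreted protein of the endothelial matrix, was at 37.8, 25.6, 34.2, 31.8 and 43.4 in the luteal phase and at 13.1, 18.1, 19.9, 12.9 and 14.4 in the follicular phase. The highest follicular phase ovary, at 19.9, remained below the lowest luteal phase ovary, at 25.6. The log2 fold change was 1.14 (SE 0.16, adjusted p = 0.000250).

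SOX18 (gene 106502775), a transcription factor of blood and lymphatic vessel development that acts on the PROX1 gene, was low but clearly separated. Its FPKM was 7.99, 4.91, 6.61, 6.25 and 9.11 in the luteal phase ovaries and 2.77, 2.90, 3.10, 2.03 and 2.24 in the follicular phase ovaries. Luteal phase ovary 2 was the lowest of its phase and still lay above all follicular phase ovaries. The log2 fold change was 1.37 (SE 0.18, 95% interval 0.99 to 1.75, adjusted p = 0.000148).

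Of the lymphatic genes, LYVE1 rose and PROX1 did not pass the test. LYVE1 (gene 102176058) was at 36.2, 35.5, 35.8, 34.5 and 33.4 in the luteal phase ovaries and at 13.8, 19.3, 16.6, 18.0 and 14.8 in the follicular phase ovaries. Its luteal phase values lay close together, with a coefficient of variation of 3.21% against 13.7% in the follicular phase. The log2 fold change was 1.10 (SE 0.09, 95% interval 0.90 to 1.29, adjusted p = 6.70e-06). PROX1 (gene 102180144), the least abundant of the 10, was at 2.34, 1.81, 3.35, 2.11 and 2.41 in the luteal phase and at 1.71, 1.85, 1.85, 1.75 and 2.42 in the follicular phase. Only luteal phase ovary 3 exceeded all follicular phase ovaries, and luteal phase ovary 2 lay below follicular phase ovaries 2, 3 and 5. The means were 2.40 ± 0.576 and 1.92 ± 0.288. The log2 fold change was 0.30 (SE 0.17, 95% interval -0.07 to 0.66, adjusted p = 0.170), an interval that holds both no change and a rise of 0.66.

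**Figure D2:**
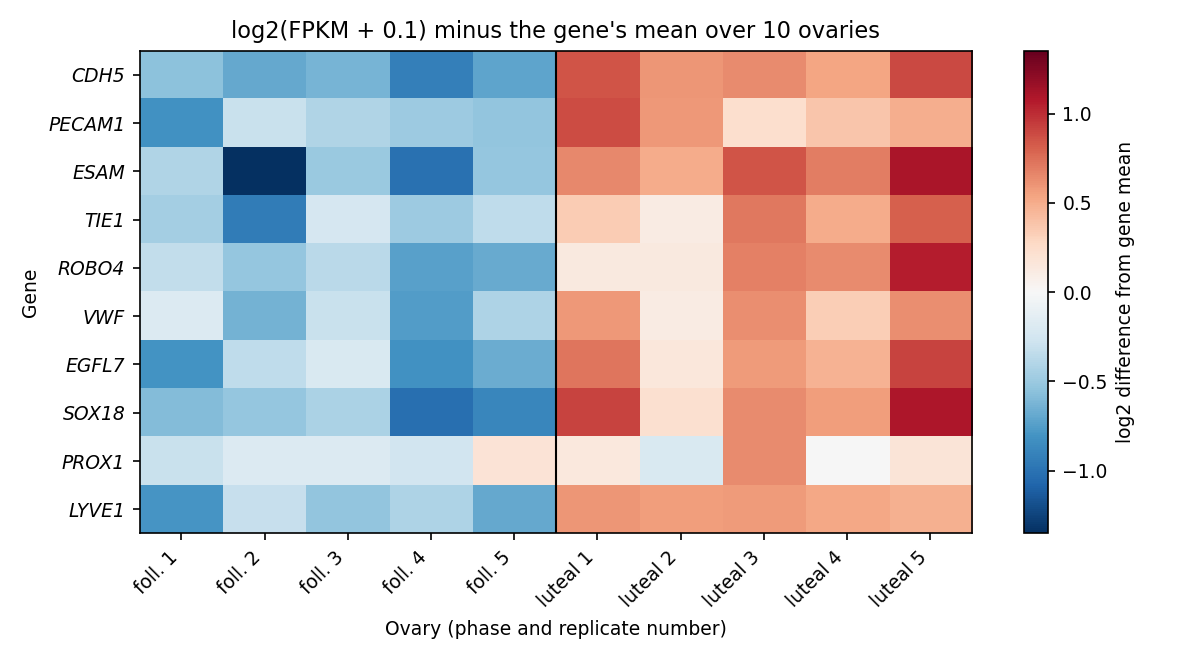
Each cell is log2(FPKM + 0.1) of a gene (rows) in an ovary (columns) minus the mean of that gene over the 10 ovaries, with red above and blue below the mean. Luteal phase columns are red in 9 rows, and the PROX1 row is paler, with luteal phase ovary 2 below and follicular phase ovary 5 above its mean.

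The ovaries of a phase did not rank alike for all genes. Luteal phase ovary 5 was the highest of its phase for 6 of the 10 genes, CDH5, ESAM, TIE1, ROBO4, EGFL7 and SOX18, but the lowest for LYVE1. For TIE1 that rank rested on the non-coding XR_001917460.1, since the coding XM_018042812.1 was at 8.31 in luteal phase ovary 5 and highest, at 11.1, in luteal phase ovary 3. Luteal phase ovary 2 was the lowest for 6 genes and the highest for none. PECAM1 and LYVE1 were both highest in luteal phase ovary 1, and in the follicular phase both were highest in ovary 2 and lowest in ovary 1. Follicular phase ovary 4 was the lowest of its phase for 5 genes, and follicular phase ovary 1 the highest for 4. The summed FPKM of the 10 genes ran from 189 to 234 in luteal phase ovaries, against 91.7 to 110 in follicular phase ovaries.

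FPKM is scaled by transcript length, so the levels of the genes can be ordered. In the luteal phase the order of mean FPKM was PECAM1, LYVE1, EGFL7, VWF, CDH5, TIE1, ESAM, SOX18, ROBO4 and PROX1. PECAM1 stood apart from LYVE1, CDH5 from TIE1 and ROBO4 from PROX1, with no overlap between the ovaries of the neighbours. The ranges of the other 6 pairs of neighbours overlapped, and LYVE1 exceeded EGFL7 in only 3 of 5 ovaries. In the follicular phase the order was PECAM1, VWF, LYVE1, EGFL7, CDH5, TIE1, ESAM, SOX18, ROBO4 and PROX1. VWF exceeded LYVE1 in 3 of 5 follicular phase ovaries. The luteal place of EGFL7 ahead of VWF rested on its non-coding (XR) transcripts. The coding EGFL7 transcripts alone averaged 27.3 ± 6.18 in the luteal phase, below VWF at 31.9, and VWF then led EGFL7 in both phases, in 4 of 5 luteal and 5 of 5 follicular phase ovaries. ESAM, SOX18, ROBO4 and PROX1 formed a low group in the follicular phase, with overlapping ranges between neighbours.

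Whether the genes changed by different amounts was examined with the log2 ratio of each pair of genes within an ovary, which does not depend on the scaling of a library apart from the added 0.1. This comparison was chosen after the values were seen. Over all 45 pairs, 9 ratios differed between the phases at a Benjamini-Hochberg adjusted p under 0.05 (two-sided exact permutation test of 5 ovaries against 5). All 9 had an exact permutation p of 0.00794, the smallest the design allows, and an adjusted p of 0.0397. Of these, 6 involved PROX1. Each gene enters 9 of the 45 ratios, so the ratios are not independent of each other. Ratios between other genes were not tested, so no share over all genes stands beside this count.

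Relative to PROX1, ESAM rose by 1.22 on the log2 scale, CDH5 by 1.11, SOX18 by 1.07, ROBO4 by 0.76 and TIE1 by 0.69. Without its non-coding transcript TIE1 rose by 0.95 relative to PROX1, more than ROBO4. The log2 ratio of PROX1 over LYVE1 was -3.04 ± 0.31 in follicular and -3.84 ± 0.31 in luteal phase ovaries, so the lymphatic genes changed by unequal amounts. The ratios of PROX1 to VWF and to EGFL7 had an adjusted exact permutation p of 0.0649 each, and that to PECAM1 0.102. The other 3 ratios that passed were CDH5 over VWF, ESAM over VWF and ESAM over TIE1, which rose by 0.49, 0.60 and 0.53. In these ovaries VWF rose less than both CDH5 and ESAM, with no overlap of the phases in either ratio. The adjusted p of these ratios depended on how many other pairs also reached the smallest exact permutation p, 6 of them with PROX1. Without the non-coding transcripts of TIE1 and EGFL7, 8 of the 9 pairs still passed, each with an adjusted exact permutation p of 0.0446. The pair that no longer passed was ESAM over TIE1, whose difference fell to 0.27 with overlapping phases (exact permutation p = 0.357, adjusted p = 0.587). In the remaining pairs a difference was not detected with 5 ovaries per phase.

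**Figure D3:**
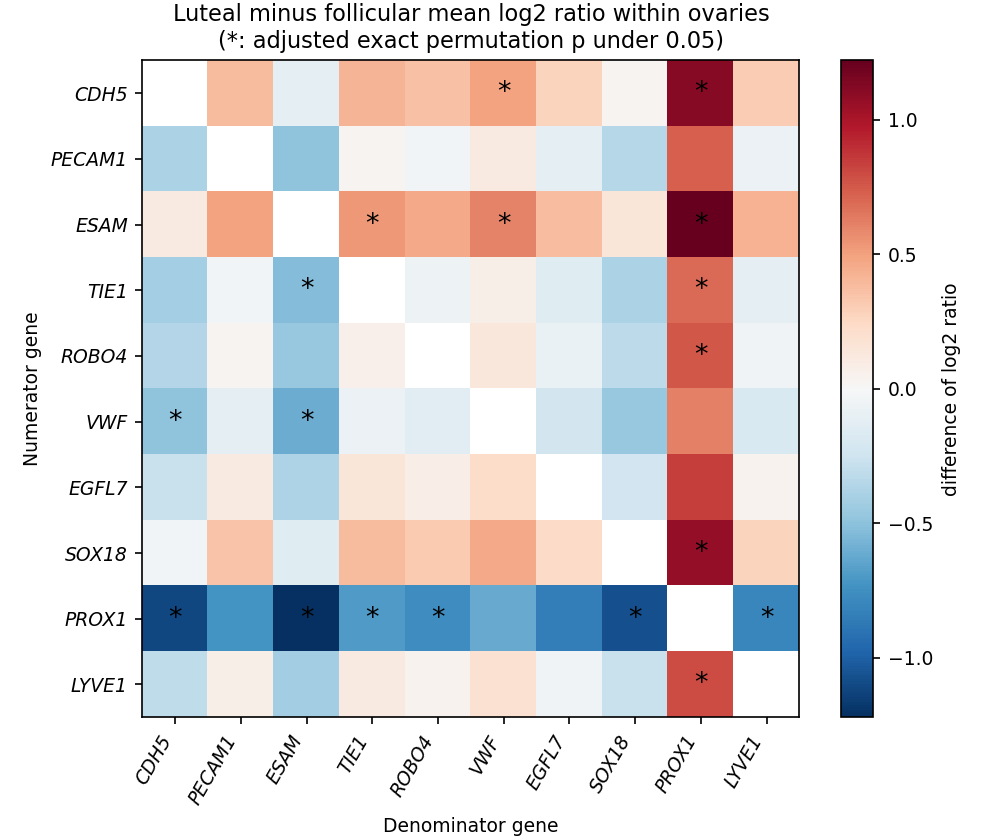
Luteal minus follicular difference of the mean within-ovary log2 ratio of the gene in the row over the gene in the column, with asterisks where the adjusted exact permutation p is under 0.05. The PROX1 row and column hold 6 of the 9 pairs with an asterisk.

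The table lists 30 transcripts for the 10 genes. ESAM, ROBO4, VWF, SOX18 and LYVE1 have 1 transcript each. In a fit of all 32842 transcripts that passed the filter, 27 of the 30 were tested, 11 were higher in the luteal phase and none was lower (limma, adjusted over all transcripts). Over all transcripts tested, 17.3% were called, 7.47% as higher and 9.82% as lower. The 11 belong to the 9 genes that rose, and the transcripts too low to be tested all belong to PROX1.

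Both CDH5 transcripts rose, XM_005692102.3 by 1.44 and XM_018062082.1 by 1.34 on the log2 scale. The first held 73.6 ± 2.60% of the CDH5 sum in luteal phase ovaries, against 72.1 ± 7.35% in follicular phase ovaries. For PECAM1, 2 of 7 transcripts were called, and the leading XM_013972406.2 rose by 1.18 (limma adjusted p = 0.000170). PECAM1 XM_005694007.3 ranged from 1.93 to 10.2 in luteal phase ovaries, against 0.923 to 5.39 in follicular phase ovaries, with no call. TIE1 XM_018042812.1 rose by 1.25 (limma adjusted p = 0.000403), while the non-coding form XR_001917460.1 was listed at 0 in 3 luteal and 2 follicular phase ovaries.

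EGFL7 has 9 transcripts, and the division of its FPKM among them varied between ovaries of the same phase. The leading XM_018056126.1 held 25.6% to 52.4% of the sum in luteal phase ovaries, against 10.2% to 52.5% in follicular phase ovaries. It had an adjusted p of 0.0532 in limma, whereas XM_018056125.1 rose by 1.37 (adjusted p = 0.00534). PROX1 was carried mainly by XM_018060737.1, with 79.0 ± 11.4% of the sum in luteal phase ovaries, against 84.3 ± 10.2% in follicular phase ovaries. No difference between the phases in the share of the leading transcript was detected in the 5 genes with several transcripts (two-sided exact permutation p from 0.278 to 0.683, adjusted 0.683 for each).

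**Figure D4:**
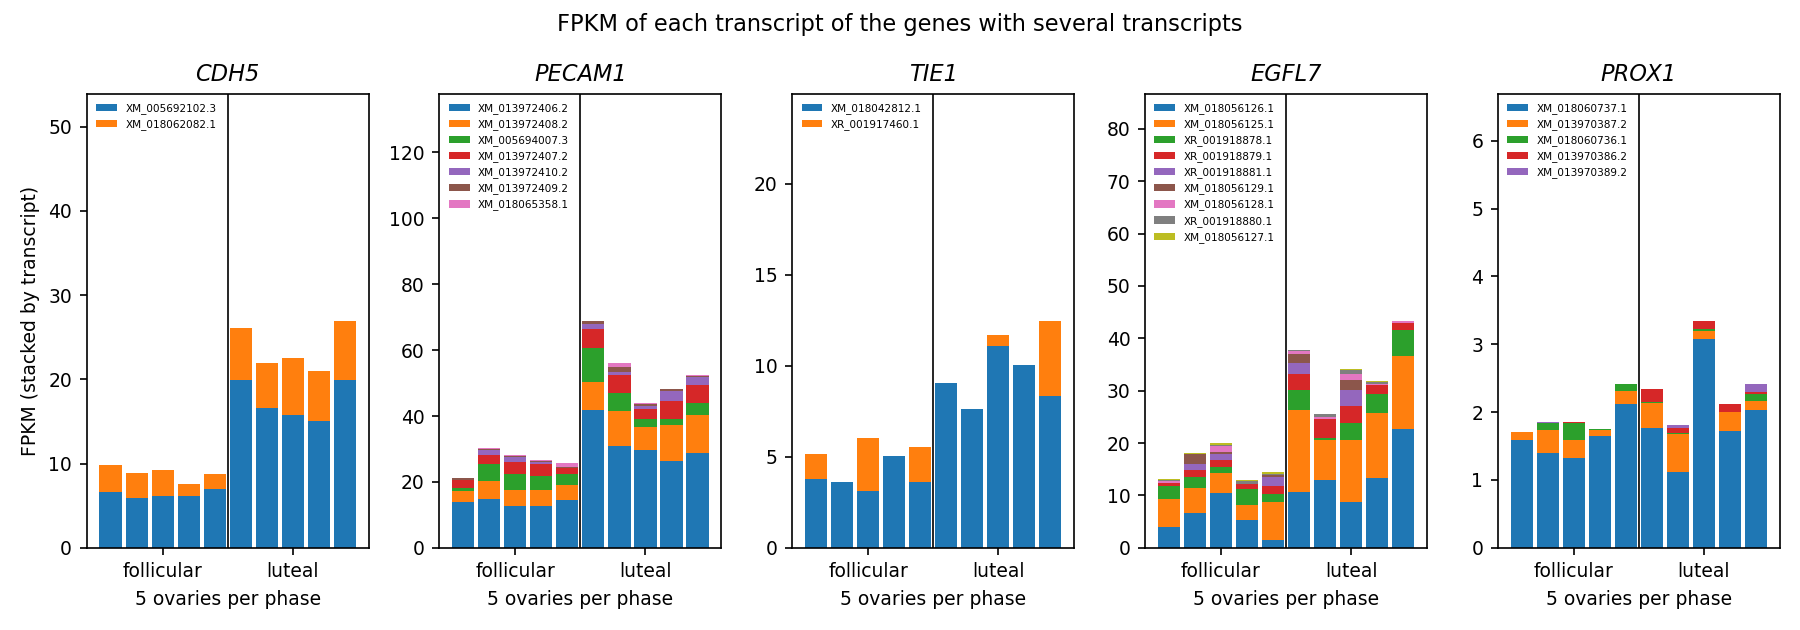
Stacked FPKM of the transcripts of CDH5, PECAM1, TIE1, EGFL7 and PROX1, with 1 bar per ovary and follicular phase ovaries to the left of the line. The lowest segment, the leading transcript, is taller in the luteal phase for CDH5, PECAM1 and TIE1, and the division of EGFL7 differs from ovary to ovary.

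Other endothelial genes were taken from a list of 30, chosen, like the other lists, with earlier results of these data known. Of these, 28 were in the protein-coding rows and all 28 were tested. In the luteal phase 26 of them were higher and none was lower, beside 15.9% and 27.8% of all genes tested, with a median log2 fold change of 1.00. The phases did not overlap in 24 genes of the list, all with the luteal phase above, which held for 11.2% of all genes tested, while 17.2% had the luteal phase below. The 3 largest changes were those of ESM1, PLVAP and APLNR. ESM1, a secreted proteoglycan of endothelial tip cells, was at 12.9, 13.6, 23.4, 34.0 and 36.5 in the luteal phase ovaries and between 1.76 and 4.44 in the follicular phase, a log2 fold change of 2.88 (SE 0.35, adjusted p = 0.000106). PLVAP, which forms the diaphragms of fenestrated capillaries, rose from 0.695 ± 0.166 to 5.32 ± 1.92, a log2 fold change of 2.70. APLNR, the apelin receptor, rose by 1.94 on the log2 scale. KDR, the main VEGF receptor and the most abundant gene of the list in the luteal phase, was at 79.1 ± 19.6 and 25.7 ± 3.20, a difference of 1.59 on the log2 scale (limma adjusted p = 3.43e-05).

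CLDN5 and S1PR1 were not called, and both are named because their values stood apart from the list. CLDN5, the claudin of endothelial tight junctions, was at 26.0 ± 3.33 in luteal phase ovaries, against 30.8 ± 4.13 in follicular phase ovaries, with a log2 fold change of -0.24 (95% interval -0.49 to 0.00, limma adjusted p = 0.0993). S1PR1, the sphingosine-1-phosphate receptor, was at 24.8 ± 2.63 and 24.5 ± 2.36, and its log2 fold change was 0.02 (95% interval -0.18 to 0.22, limma adjusted p = 0.879). Both were well above the levels of ESAM, TIE1, ROBO4 and SOX18 in either phase.

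Of 12 other lymphatic genes 11 were tested, and 5 were higher and 2 were lower in the luteal phase, beside 15.9% and 27.8% of all genes tested. The list had a median log2 fold change of 0.20. CCL21, the chemokine that lymphatic endothelium displays to dendritic and T cells, was the most abundant in the luteal phase and rose from 53.5 ± 8.17 to 152 ± 22.0, a log2 fold change of 1.50 (limma adjusted p = 6.47e-06). STAB2, a scavenger receptor for hyaluronan, rose by 1.22 on the log2 scale from a level of 0.130, and FLT4, the VEGF-C receptor, by 0.90. GATA2, which rose by 0.63, is in both lists and is named for that reason. NRP2, a co-receptor of FLT4, fell by 0.76 on that scale, and MMRN1, a multimerin stored in endothelial cells and platelets, fell by 0.69. FOXC2, a transcription factor of lymphatic valves, was between 0.0250 and 0.153 and was not tested.

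**Figure D5:**
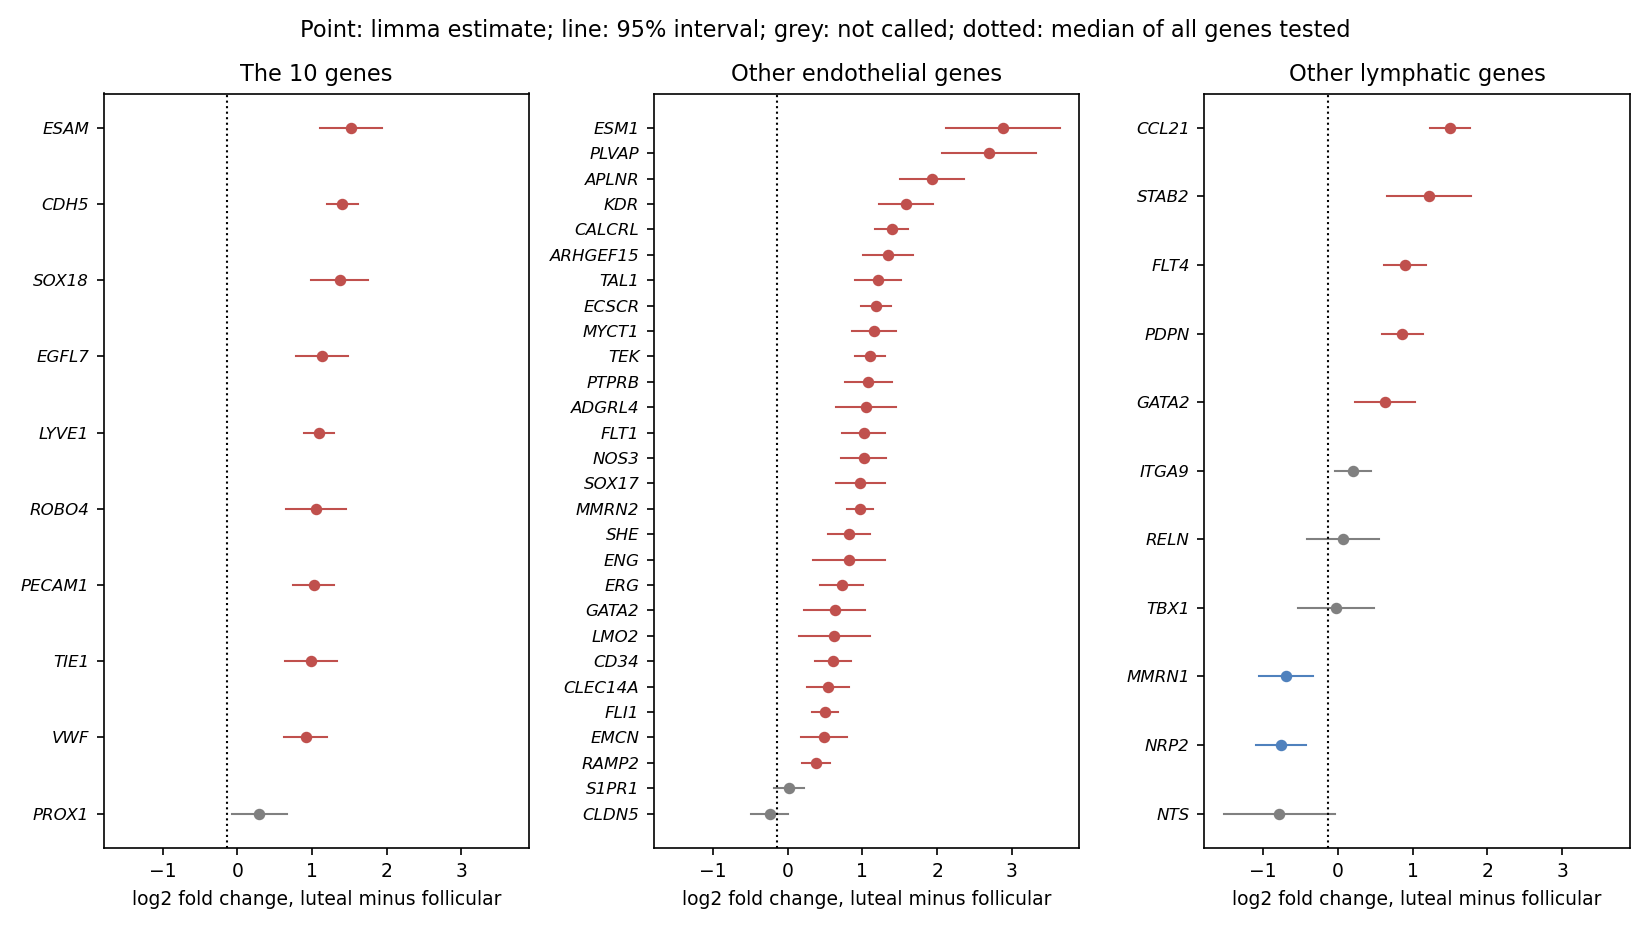
Log2 fold change (luteal minus follicular, log2(FPKM + 0.1) scale) with its 95% interval for the 10 genes and for the lists of other endothelial and other lymphatic genes, with red for higher, blue for lower and grey for no call. The dotted line is the median of all genes tested, -0.14, and in the middle panel S1PR1 and CLDN5 alone are grey.

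Several of the 10 genes are not limited to endothelium, so markers of other cells were read beside them. Macrophages and leukocytes can carry LYVE1 and PECAM1. Of 10 macrophage and leukocyte markers tested, 5 were higher and none was lower in the luteal phase, beside 15.9% and 27.8% of all genes tested, with a summed FPKM of 243 to 331 there against 104 to 191 in the follicular phase. C1QA, a complement subunit of macrophages, rose by 1.48 on the log2 scale and MRC1, the mannose receptor, went from 20.8 ± 2.13 to 53.1 ± 17.2. PTPRC, the pan-leukocyte marker CD45, was at 10.9 ± 1.49 and 10.1 ± 3.78, with no call (limma adjusted p = 0.512). The part of these cells in the values of LYVE1 and PECAM1 was not tested.

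Platelets carry VWF and PECAM1 transcripts as well. The 7 platelet markers in the table summed to 5.36 to 9.35 in luteal phase ovaries, against 3.99 to 6.85 in follicular phase ovaries. SELP, which endothelial cells also make, was 4.34 to 7.75 of this in luteal phase ovaries, against 1.97 to 3.70 in follicular phase ovaries. GP9, a platelet glycoprotein, was between 0 and 0.0319 in all 10 ovaries. Among the 4 platelet markers tested, SELP was higher and PPBP was lower in the luteal phase (all genes 15.9% and 27.8%), the latter by 2.91 on the log2 scale from 1.49 ± 1.04, with 2 luteal phase ovaries listed at 0. ITGA2B was at 0.943 ± 0.252 and 0.977 ± 0.223, with no call.

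Of 11 markers of the cells around vessels, pericytes and vascular smooth muscle, 5 were higher and 5 were lower in the luteal phase, beside 15.9% and 27.8% of all genes tested. RGS5, KCNJ8 and ABCC9, all markers of pericytes, rose by 0.84, 0.80 and 0.71 on the log2 scale. MYH11, CNN1 and ACTA2, contractile genes of smooth muscle, fell by 1.25, 1.07 and 0.81. The list summed to 730 to 1140 in luteal phase ovaries, against 1268 to 1555 in follicular phase ovaries, led by the contractile gene TAGLN.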

How the data were processed

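The authors aligned paired-end reads of 10 strand-specific libraries with HISAT2 2.0.4, assembled transcripts with StringTie 1.3.1 and computed FPKM with Cuffdiff 2.1.1. The deposited FPKM table holds 50146 transcripts, 43766 of them protein-coding, with 1 column per ovary and no pooling. The genome build is not given in the sources used here, so no coordinates are reported. Counts were not used, so the negative binomial test of the study could not be run.

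Protein-coding FPKM were summed by symbol, and a gene entered the test if 5 or more ovaries reached an FPKM of 0.1. The test was two-sided, with limma 3.58.1 in R 4.3.3 (lmFit, eBayes with trend) on log2(FPKM + 0.1). The fit was first checked on simulated data. Single values were compared by exact permutation over the 252 divisions of the 10 ovaries. Figures used Python 3.11.15 with matplotlib 3.10.9.

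The genes and the other lists were chosen with earlier results of these data known. All 10 genes are named. From each other list, the 3 largest calls per direction and the most abundant gene by mean over all ovaries could be named; CLDN5, S1PR1, GATA2, PTPRC, ITGA2B, GP9, FOXC2, XM_005694007.3, XM_018062082.1, XM_018056125.1 and XR_001917460.1 were named after their values were seen. CYP11A1 was found as LOC102173131 through RefSeq synonyms. ICAM2, SOX7, PF4, CD163 and OOEP were not analysed here. HSD3B1 was not found by symbol or synonym, and a gene listed as 3BHSD was tested but not counted among the luteal cell markers. Ratios between genes, transcript shares, neighbouring genes and the fit without non-coding (XR) transcripts were added after the data were seen. Each alternative changed 1 choice: a pseudocount of 1 or 0.01, an FPKM minimum of 0.5 or none, 3 other scalings, eBayes without trend, a replicate block, the leading transcript alone and leaving out each ovary in turn. A further alternative, exact permutation of each of the 10 genes, changed both the test and the adjustment, since its p-values are unadjusted.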

Additional observations from a re-analysis of the deposited data

Results flagged for a closer look

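PROX1 in follicular phase ovary 5 was at 2.42, while the other 4 follicular phase ovaries lay between 1.71 and 1.85, so the gap took up 0.796 of the range of the phase, above the 95% critical value of Dixon's test for 5 ovaries. This was the only such value among the 20 groups of 5 tested for the 10 genes, and chance gives about 1 in 20. Without this ovary the log2 fold change of PROX1 was 0.38 (limma adjusted p = 0.0949), against 0.30 with it, and PROX1 was not called in either fit.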

How the results depend on the processing

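The number of the 10 genes called was 9 in the main analysis and under every alternative run, and the log2 fold changes of the 10 genes kept their direction and their side of the threshold in all 220 comparisons with an alternative, of which the 10 by exact permutation used unadjusted p-values (0.00794 for each of the 9 genes and 0.119 for PROX1). Leaving out each ovary in turn gave adjusted p-values of at most 0.00368 for the 9 genes (ROBO4, without luteal phase ovary 4). Over all alternatives the largest was 0.0323, for EGFL7 with the leading transcript alone. PROX1 came nearest to a call after quantile normalization, with 0.38 and an adjusted p of 0.0662, and its change was smallest, 0.17, without luteal phase ovary 3. The other endothelial genes gave between 24 and 26 calls, the other lymphatic genes between 6 and 8, and the transcripts of the 10 genes between 11 and 13. Over all genes the calls ran from 4926 with the leading transcript alone to 7020 with the replicate block. Of the 9 gene pairs whose ratio passed, 8 passed without non-coding transcripts, an alternative chosen after seeing the data. The replicate numbers of the phases are not tied to each other by the labels. Deviations of same-numbered ovaries correlated with r from 0.0258 to 0.199, and 2 of 5 luteal phase ovaries correlated best with their own number. With the replicate number as a block 9 of the 10 genes were called. Without counts per ovary, the counting error of low genes such as PROX1 is unknown.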

Other observations

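Of the 19 nearest tested neighbours of the 10 genes on the goat RefSeq gene order, 3 were higher (15.8%) and 7 were lower (36.8%) in the luteal phase, against 15.9% and 27.8% of all genes tested, so their share of higher genes was near that of all genes. Their median log2 fold change was -0.09. MSANTD2, the only tested gene between ESAM and ROBO4, had a log2 fold change of -0.56 (limma adjusted p = 0.0624), while ESAM and ROBO4 rose by 1.52 and 1.05. The genes on both sides of SOX18, TCEA2 and PRPF6, fell by 0.56 and 0.38. The neighbours that rose were CD9 beside VWF, by 1.37, NOTCH1 beside EGFL7, by 0.65, and SMYD2 beside PROX1, by 0.58, the last with a limma adjusted p of 0.00271. AGPAT2, on the other side of EGFL7, fell by 1.12 (limma adjusted p = 0.000183).

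With each gene centred on its phase means, the gene whose pattern over the 10 ovaries was most like that of CDH5 was BRD2, a bromodomain protein, with a Pearson r of 0.970 and a Spearman rho of 0.964 (r was 0.945 without the 2 ovaries farthest from the median). SFSWAP, AXIN1, MAP1S and ANKRD11 followed, with r from 0.956 to 0.962. For the mean of the 10 genes the nearest were WDR59, SSBP3, SOX13, LOC102179466 and ZMYM2, with r from 0.944 to 0.968. These were picked as the highest of all genes tested, and values of 1 ovary share a library, so no p is attached. None of these genes is in the endothelial lists, and of the 10, SOX13 alone had a positive log2 fold change, 0.14, without a call.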
